A study of Triticum aestivum with 24 samples.

Results

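Wheat plants of the susceptible line Newton were compared with and without feeding Hessian fly larvae at 12 h after egg hatch, which asks what a plant that the larvae can colonise does early in the attack. The members are 6 arrays of 24 in the series, chosen by their labels: 3 from infested Newton and 3 from uninfested Newton, both taken at 12 h. Plants at the 2-leaf stage received the eggs of 10 mated females per 10 plants, and plants of the control group carried no larvae. The tissue was the larval feeding site, a 1.5 to 2 cm piece of the second leaf sheath, from seedlings kept at 20 °C by day and 18 °C by night with 14 h of light and 10 h of dark. Molly, which carries the resistance gene H13 and whose interaction with the larvae is incompatible, was sampled the same way at 12 h and serves here only to show where Newton differs. Newton is one susceptible line and Molly one resistant line, so a difference between them cannot be assigned to H13 alone.

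Hessian fly larvae feed at the base of wheat leaf sheaths without chewing, by releasing salivary proteins into the plant. In a compatible interaction the cells at the feeding site turn into a nutritive tissue that supplies the larvae with sugars and amino acids, and the seedling becomes stunted. In an incompatible interaction the plant mounts a defence and the larvae die without such a tissue being formed.

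Each array gave a MAS5 signal, a brightness on a linear scale, for every probe set, and 36707 probe sets were bright enough to test. A probe set is said to rise or fall where its adjusted p in limma was under 0.05. On that rule 3973 probe sets (10.8%) rose and 2847 (7.76%) fell in infested Newton, together 6820 (18.6%). The rises were more numerous and smaller: their median log2 change was 0.58, against -0.91 for the falls and 0.07 for all tested probe sets. At least 2-fold changes numbered 600 rises (1.63%) and 1285 falls (3.5%), and at least 4-fold changes 114 rises and 382 falls. The 8 tag controls, which match no wheat transcript, reached a signal of 85.0, and levels below that are not told from background. With both groups above that range there were 301 rises and 846 falls of at least 2-fold, and 21 rises and 156 falls of at least 4-fold. Falls also had the larger median change in each of 4 equal classes of signal, from -1.84 against 1.2 in the dimmest class to -0.63 against 0.42 in the brightest. The share of calls that rose was 58.3%, and it was 48.7% when the spread was estimated from these 6 arrays alone, which called 4012 probe sets.

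**Figure D1:**
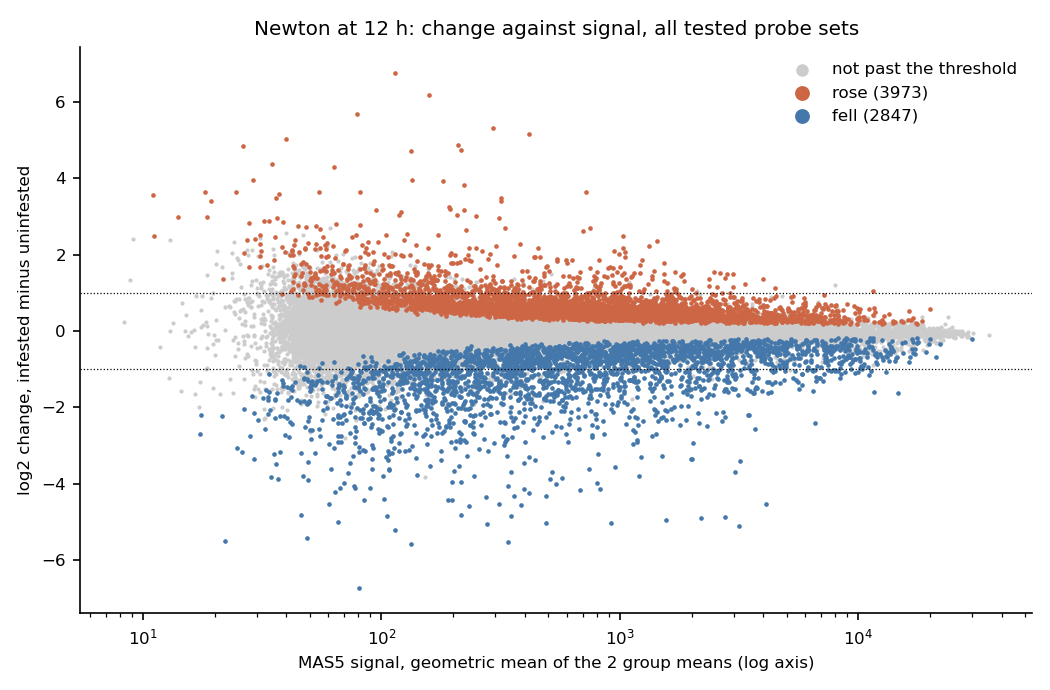
Each point is 1 tested probe set, with its MAS5 signal (log axis) across and its log2 change in infested over uninfested Newton at 12 h upwards. Orange points rose (3973) and blue points fell (2847), and the dotted lines mark 2-fold changes, beyond which the falls (1285) outnumber the rises (600).

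The 3 infested arrays did not respond to the same extent. Over the rises, infested replicates 1, 2 and 3 lay 0.57, 0.64 and 0.50 above the uninfested mean (median log2), and over the falls 0.87, 1.04 and 0.81 below it (medians of -0.87, -1.04 and -0.81). Replicate 2 was the farthest from the uninfested mean for 54.6% of the called probe sets and replicate 3 the closest for 49.8%. On the second principal component of all 24 arrays the infested replicates stood at 29.7, 60.9 and 2.15, against -60.7 to -57.4 for the uninfested ones. Without infested replicate 2 the calls numbered 4496, and without replicate 3 they numbered 7790, of which 5834 were among the 6820. The control probe set for wheat 18S rRNA read 6564, 4832 and 8346 on the uninfested arrays and 3398, 2801 and 1134 on the infested ones, a log2 change of -1.54. With 18S signal as a covariate 3540 probe sets were called. The 18S readings did not overlap between the groups, so that fit cannot cleanly separate 18S signal from infestation. The 3′ to 5′ log2 ratios of 4 control transcripts moved by -0.62 to 0.35 between the groups. Nothing used here says that the uninfested replicates came from separate plants, so p-values measure only how far these arrays differ, which may be a technical spread.

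Marker lists were read as a check of the labelled tissue. The photosynthesis list, a marker of green tissue, summed to 103960 to 132914 signal units on the infested arrays and 126672 to 133548 on the uninfested ones. Of 21 probe sets for seed and anther genes, which a leaf sheath should lack, 3 exceeded the tag controls in either group, and their sum was 5364 to 5751 against 5148 to 5312. The one bright member was ALP, at 4431 to 5106 on the 6 arrays. In a piece of tissue, fewer cells of a type and less RNA per cell cannot be told apart.

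Of 76 tested genes whose name says what they are, with 132 probe sets, 9 probe sets rose and 13 fell, beside rises in 10.8% and falls in 7.76% of all tested probe sets. The groups did not overlap in 39 of the 132, as in 33.7% of all tested probe sets. Of these 22 calls 13 were lost with 18S signal as a covariate, those of Glc1, Rab15, PsbP, AGP-S, GAPN, PRO1, tubb3, both of wcH2B-6 and of rbcL, and 1 each of GSTZ1 and 6-FEH. A lost call need not mean a smaller change, since 18S signal went with infestation. In that fit PsbP had a log2 change of -0.64, beside -0.55 in the main fit, and the lost GSTZ1 probe set 0.95, beside 1.07. From the 6 arrays alone 5 of the 22 calls were made, those of BMY1, LTP3, COMT1, GAPN and 1 of GSTZ1. Wheat is hexaploid, so a probe set may read the copies of its gene on several genomes, and those ending in x_at, s_at or a_at may also read related genes.

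Among genes of starch and sugar use, falls were called for BMY1, GAPN and 2 dim probe sets of 6-FEH. The list of starch, fructan and sugar genes held 11 tested probe sets, of which 4 fell and 1 rose. Of all tested probe sets 7.76% fell and 10.8% rose. The median log2 change of the list was -0.05, so it did not fall as a whole. BMY1, a beta-amylase that releases maltose from starch, read 755, 722 and 743 without larvae and 378, 287 and 322 with them. Every infested array lay below every uninfested one, and the fall was 2.26-fold (log2 change -1.18, SE 0.22, adjusted p = 0.00075 in limma). GAPN, the glyceraldehyde-3-phosphate dehydrogenase that works without phosphate and yields NADPH in the cytosol, read 213, 241 and 186 against 115, 111 and 78.0. These groups did not overlap either, with a fall of 2.13-fold (adjusted p = 0.011), which missed the threshold without uninfested replicate 2 (log2 change -1.0, adjusted p = 0.0504) and with 18S signal as a covariate (-0.89, adjusted p = 0.18). AGP-S, the small subunit of ADP-glucose pyrophosphorylase and so part of the first committed step of starch synthesis, read 5788, 5620 and 5758 against 6269, 6340 and 7201. Its rise was small (0.20, adjusted p = 0.046) and was lost without any one of 5 of the 6 arrays, infested replicate 1 being the exception (0.14 to 0.23, adjusted p = 0.056 to 0.18).

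Fructans, the soluble polymers of fructose that wheat stores in its sheaths and stems, are broken down by the exohydrolases. A probe set of 6-FEH, fructan 6-exohydrolase, read 58.1, 98.4 and 117 without larvae and 23.8, 23 and 4.22 with them, so infested sheaths were at background. The fall was at least 1.03-fold (adjusted p = 0.0066), and the call was lost with 18S signal as a covariate (adjusted p = 0.13), with the 6 arrays alone (0.0522) and with the 12 Newton arrays alone (0.061). Another 6-FEH probe set was also called as lower (adjusted p = 0.0081) although neither group exceeded the tag controls, and its call was lost without infested replicate 2 (adjusted p = 0.065). The third 6-FEH probe set was at 0.46 (adjusted p = 0.5). The bright members 1-FEHw2, a fructan 1-exohydrolase, and Pgk-1, a phosphoglycerate kinase, had log2 changes of -0.17 (95% interval -0.36 to 0.01) and 0.01 (-0.25 to 0.27).

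Falls were also called for COMT1 and for 1 of 2 probe sets of LTP3. COMT1, which methylates phenolic precursors of lignin, had the smallest adjusted p among the named genes. It read 16806, 16684 and 16520 in uninfested sheaths and 11033, 13096 and 9291 in infested ones. The uninfested arrays agreed closely and all infested arrays lay far below them, a fall of 1.51-fold (log2 change -0.60, SE 0.09, adjusted p = 8.2e-05). It was the one call among 4 methyl transfer probe sets. SAHH, which recycles the by-product of methylation, had log2 changes of -0.16 and -0.20 in its 2 probe sets (adjusted p = 0.09 and 0.058), and PEAMT1, which methylates phosphoethanolamine, -0.28 (adjusted p = 0.4).

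LTP3, a lipid transfer protein of the kind found in the wall and cuticle, read 10088, 9675 and 8965 against 6293, 5163 and 4963 in its bright probe set. No array of one group reached the other, and the fall was 1.76-fold (log2 change -0.81, SE 0.17, adjusted p = 0.002). Its dim probe set did not pass the threshold (-0.19, adjusted p = 0.72). Glc1, kept in the same list of 5 probe sets, rose, from 535, 554 and 453 to 729, 984 and 588 (log2 change 0.55, adjusted p = 0.013). The groups did not overlap, but infested replicate 3 came close to the uninfested arrays, and the call was lost without infested replicate 2 (0.35, adjusted p = 0.1) or uninfested replicate 3 (0.46, adjusted p = 0.065). XTH, an enzyme that remodels wall xyloglucan, had a log2 change of 0.49 (adjusted p = 0.083), with infested replicates 1 and 2 at 3309 and 3849 and replicate 3 at 2217, inside the uninfested range of 1995 to 2317. TaGlu1a, a beta-glucosidase, was the brightest member and had a log2 change of -0.06 (95% interval -0.24 to 0.12).

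**Figure D2:**
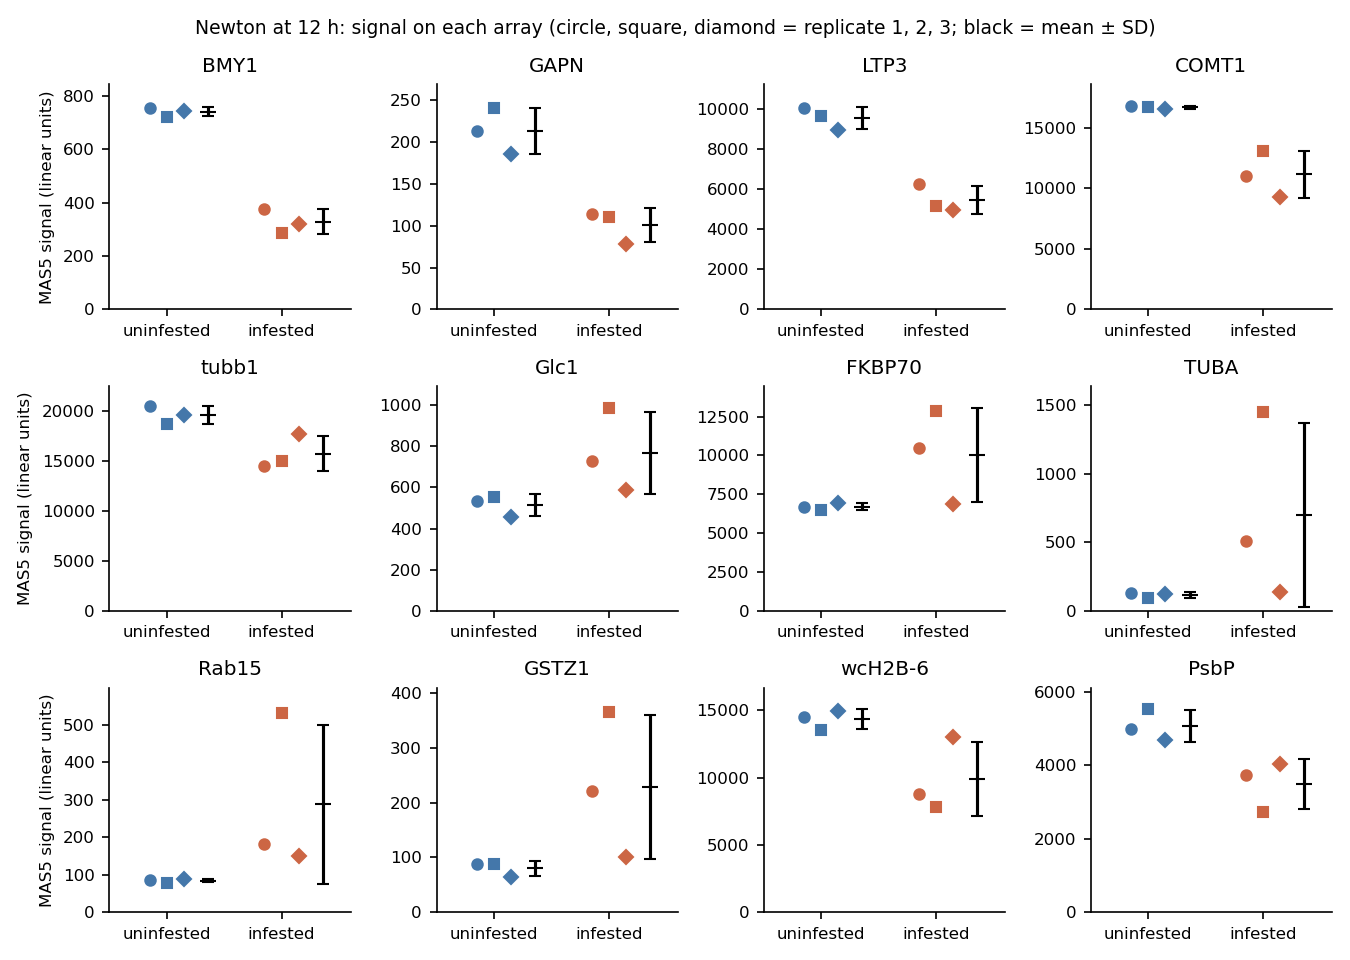
MAS5 signal (linear scale from 0) on each of the 3 uninfested (blue) and 3 infested (orange) Newton arrays at 12 h for 12 named genes, with circles, squares and diamonds for replicates 1, 2 and 3 and black bars for mean ± SD. BMY1, LTP3 and COMT1 were lower on every infested array than on any uninfested one. TUBA, Rab15 and GSTZ1 were highest on infested replicate 2, and FKBP70 on replicate 3 (6849) stayed within the uninfested range.

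Among stress genes, a chaperone-like isomerase and a dehydrin rose. FKBP70, a peptidyl-prolyl isomerase of the FK506-binding family, read 6673, 6481 and 6958 without larvae and 10454, 12837 and 6849 with them. Infested replicates 1 and 2 were well above the control arrays and replicate 3 was among them, with a log2 change of 0.54 (SE 0.14, adjusted p = 0.011). Rab15, a dehydrin that protects cells during water loss, read 86.1, 79.4 and 89.4 against 183, 532 and 149. All infested arrays were higher. The rise of the group mean was at least 2.87-fold, a bound because uninfested sheaths did not exceed the tag controls on average (adjusted p = 0.011). Without infested replicate 2 both calls were lost, at 0.34 for FKBP70 (adjusted p = 0.088) and 0.96 for Rab15 (adjusted p = 0.093). The other Rab15 probe set had a log2 change of 1.05 (adjusted p = 0.12). EMH2, an Em protein of late embryogenesis, missed the threshold (adjusted p = 0.11), with infested sheaths within the range of the tag controls. Their list of 5 probe sets (LEA, dehydrin and heat shock genes) thus held 2 rises and 0 falls, beside 10.8% and 7.76% of all tested probe sets. Its median was 0.54, with members on both sides of 0. Without infested replicate 1 the list held 2 rises and 1 fall.

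In the detoxification list, 2 of 12 probe sets rose, beside 10.8% of all tested probe sets. Both were of GSTZ1, a zeta-class glutathione transferase. One read 81.5, 120 and 129 against 223, 282 and 184 (log2 change 1.07, adjusted p = 0.017). Another read 88.5, 87.4 and 63.8 against 220, 364 and 102, at least 2.37-fold higher (adjusted p = 0.015). Neither overlapped between groups. The first call was lost without infested replicate 2 (0.91, adjusted p = 0.087) or uninfested replicate 1 (0.86, adjusted p = 0.091). The other was lost without infested replicate 1 (1.28, adjusted p = 0.0503) or 2 (0.92, adjusted p = 0.12) or uninfested replicate 3 (1.19, adjusted p = 0.063). The remaining GSTZ1 probe set missed the threshold at 0.62 (adjusted p = 0.12). TaPrx1, a peroxidase and the brightest gene of the list, had log2 changes from -0.37 to 0.12 in 4 probe sets (adjusted p = 0.35 to 0.86). The glyoxalase gene lgul had -0.48 and -0.26 (adjusted p = 0.088 and 0.38).

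Inhibitors of digestive and cell wall enzymes are a common plant defence against insects and microbes. None of the 5 tested probe sets of that list passed the threshold, and 3 of the 13 on the array exceeded the tag controls in each group. XIP-I, an inhibitor of microbial xylanases, read 535, 1081 and 488 without larvae and 1988, 2191 and 921 with them. Infested replicates 1 and 2 lay above all uninfested arrays and replicate 3 did not (log2 change 1.28, 95% interval 0.18 to 2.37, adjusted p = 0.098). The other XIP-I probe set had 0.97 (adjusted p = 0.16). Of 8 probe sets for thionins, PR5 and wheat germ agglutinin 1 was tested, that of WGA2, which read 87.9, 434 and 144 against 51.7, 79.7 and 31.0 (adjusted p = 0.12).

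Cytoskeleton genes moved little, apart from one. In the list of tubulins and profilin, 12 probe sets, 4 fell and 1 rose, beside 7.76% and 10.8% of all tested probe sets. The median log2 change of the list was -0.07. The beta-tubulin gene tubb1 read 20474, 18655 and 19574 against 14469, 14947 and 17675, with no overlap (log2 change -0.32, SE 0.07, adjusted p = 0.0045). Falls were also called for Tubb4 (-0.36, adjusted p = 0.013), the actin-binding profilin gene PRO1 (-0.24, adjusted p = 0.014) and tubb3 (-0.17, adjusted p = 0.035). TUBA, an alpha-tubulin gene, rose in a dim probe set from 132, 93.2 and 126 to 514, 1449 and 141. The infested arrays were all higher but spread widely, replicate 3 being close to the control arrays (log2 change 2.03, 95% interval 0.95 to 3.11, adjusted p = 0.009). For the bright TUBA probe set the change was -0.05 (adjusted p = 0.71). Without infested replicate 2 the calls of TUBA (1.22, adjusted p = 0.072), Tubb4 (-0.27, adjusted p = 0.09), PRO1 (-0.22, adjusted p = 0.056) and tubb3 (-0.18, adjusted p = 0.069) were lost. Those of Tubb4 without uninfested replicate 2 (-0.34, adjusted p = 0.0507), PRO1 without uninfested replicate 1 (-0.19, adjusted p = 0.081) and tubb3 without uninfested replicate 1 or 3 or infested replicate 1 (-0.18 to -0.13, adjusted p = 0.077 to 0.18) were lost too.

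The histone and chromatin list, a marker of dividing cells, had a negative median and a wide spread between the infested arrays. Of 20 probe sets from 6 genes 2 fell and none rose, and 3 did not overlap between groups. Over all tested probe sets 7.76% fell, 10.8% rose and 33.7% did not overlap. Histones package DNA and their messages are made mainly in cells that copy it. Both falls were of wcH2B-6, which read 15089, 14490 and 15512 in uninfested sheaths and 9255, 8025 and 13191 in infested ones (log2 change -0.60, adjusted p = 0.047). Replicates 1 and 2 were far below the control arrays and replicate 3 only just (other probe set -0.57, adjusted p = 0.045). Over the list the median log2 change was -0.52, and against the uninfested mean it was -0.55, -1.03 and 0.03 in infested replicates 1, 2 and 3. Summed signal of the list was 134527 to 263012 on the infested and 241495 to 272110 on the uninfested arrays. Infested replicate 3, with the histone level of the control arrays, had the lowest 18S rRNA signal of the 3 (1134), and replicate 2, with the lowest histone level, had 2801. A relation between 18S signal and histone level was not tested. Without replicate 3, 18 of 20 probe sets were called as falls (median -0.79). Without any other single array 0 were called, wcH2B-6 included (medians -0.55 to -0.25). The bright members wcH2A-9 and Hmgb3, a high mobility group protein, had log2 changes of -0.76 to -0.32 in 6 probe sets and -0.38 and -0.33 in 2, none past the threshold.

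**Figure D3:**
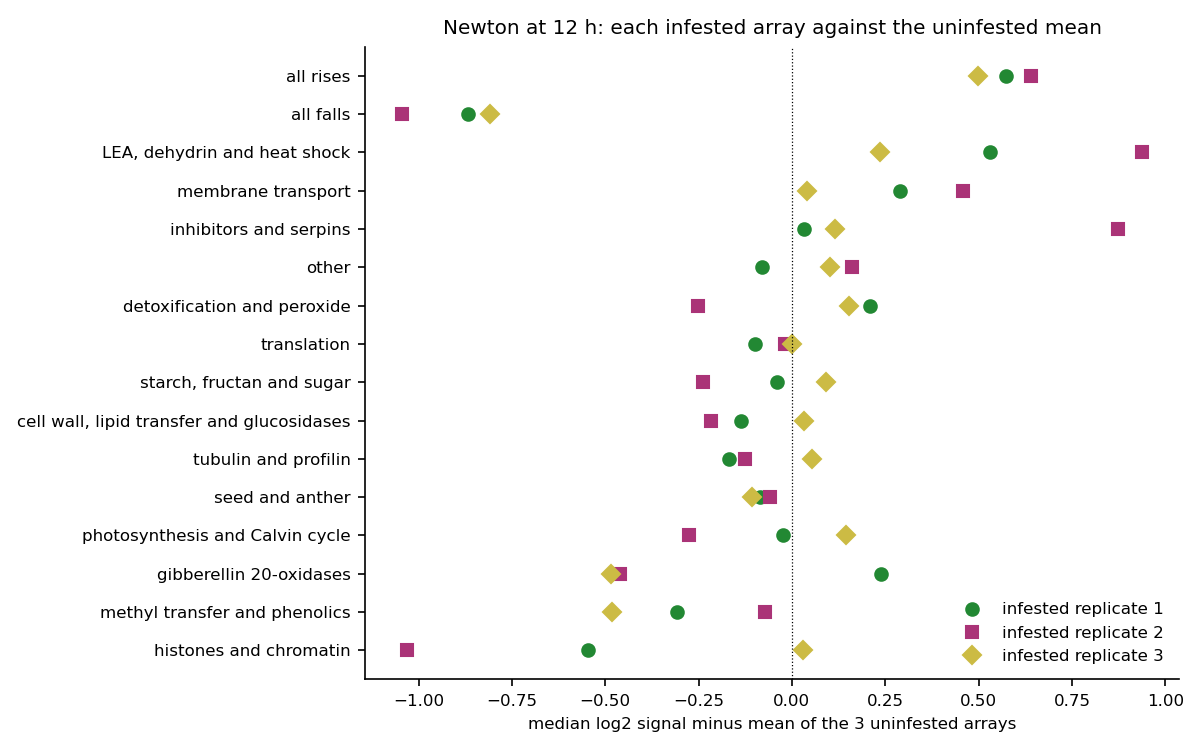
Median log2 signal of each infested Newton array minus the mean of the 3 uninfested arrays, for all rises, all falls and the gene lists, with green circles, purple squares and yellow diamonds for replicates 1, 2 and 3. The histone list spreads from -1.03 on replicate 2 to 0.03 on replicate 3, and the medians of all rises lie at 0.50 to 0.64 and of all falls at -1.04 to -0.81, on sides that are fixed because the calls were made on these arrays.

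Photosynthesis genes had a median of -0.09 over 19 probe sets, with 2 rises and 1 fall. Over all tested probe sets 10.8% rose and 7.76% fell. PsbP, a protein of the oxygen-evolving complex, fell from 4986, 5521 and 4674 to 3741, 2726 and 4023 with no overlap (log2 change -0.55, adjusted p = 0.02). The call was lost without infested replicate 2 (-0.38, adjusted p = 0.14) or uninfested replicate 2 (-0.49, adjusted p = 0.083), and the brighter PsbP probe set had -0.22 (adjusted p = 0.17). The rises were of dim probe sets for rbcL, the large subunit of Rubisco. One rose by 0.97 (adjusted p = 0.021, lost without infested or uninfested replicate 2 at 0.79 and 0.62, adjusted p = 0.11 and 0.15) and the other was called from signals in the range of the tag controls on most arrays. The brightest rbcL probe set, at 31517 to 39011, had a log2 change of -0.09 (95% interval -0.25 to 0.06), and PsbO, another protein of that complex, -0.06 (-0.30 to 0.18).

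None of 9 translation probe sets passed the threshold, and their median was -0.03. The elongation factor gene TEF1 had log2 changes of -0.01 and -0.03, the latter with a 95% interval of -0.17 to 0.10, and RPL9, a ribosomal protein gene, -0.19 (-0.48 to 0.10). The 2 purine genes, AdSS and APRT, had -0.03 (-0.28 to 0.21) and 0.01 (-0.10 to 0.13). No call was made among 4 membrane transport probe sets, where the proton pump gene ha1 had 0.24 to 0.29 (adjusted p = 0.098 to 0.31) and the channel gene TPC1 0.00. Likewise no call was made for the transcription factor genes WZF1 and TBP1 (0.00 and 0.15), the 3 gibberellin 20-oxidase probe sets or the 14 probe sets of other named genes, of which TCTP and TSA were the brightest (0.00 and -0.05).

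Probe sets with no paired gene were 97.4% of those tested. They held 3867 rises and 2739 falls, so 18.5% of them were called, beside 18.6% of all tested probe sets. The unnamed probe set with the largest rise by the naming rule read 4.68, 25.5 and 1.64 without larvae and 552, 2986 and 154 with them, at least 7.44-fold higher (adjusted p = 2.6e-05). The next probe set rose from 22.8, 38.1 and 3.83 to 757, 1870 and 883, at least 12.7-fold higher (adjusted p = 1.5e-05). Both were at background in all uninfested arrays and clearly above it in all infested ones. The unnamed probe set with the largest fall by that rule went from 636, 726 and 791 to 57.7, 6.06 and 9.57, at least 8.41-fold lower (adjusted p = 3.0e-04). The next to fall read 1771, 1306 and 1730 against 63.3, 4.23 and 149, at least 18.7-fold lower (adjusted p = 2.1e-04). The infested arrays were within the range of the tag controls in both, except replicate 3 of the latter (149). For all these unnamed probe sets, groups without overlap were a condition of the naming rule and so not a result.

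The strong changes of Newton were set beside those of resistant Molly at 12 h. Molly was compared with its own uninfested sheaths, so the responses share no array, only the estimate of the spread. Of the 600 rises of at least 2-fold in Newton, 346 (57.7%) also rose in Molly, where 16.4% of all tested probe sets rose, and 12 (2%) fell. Of the 1285 falls of at least 2-fold, 247 (19.2%) also fell in Molly, where 17.7% of all tested probe sets fell, and 262 (20.4%) rose. The median change in Molly was 0.97 over those rises and 0.04 over those falls. With both Newton groups above the range of the tag controls, the shares were 67.1% for the rises and 24.3% for the falls, beside 17.0% and 22.0% of all such probe sets. The share of the rises was 45.2% (297 of 657) without uninfested replicate 3 and 48.7% with no filter on low signal. It was 74.8% (166 of 222) with a stricter filter that left out 70% of probe sets, beside 21.1% of all those tested. With a pseudocount of 32 it was 64.9%. Without infested replicate 3 the counts were 555 of 945 rises (58.7%) and 385 of 1422 falls (27.1%). With 18S signal as a covariate they were 285 of 629 (45.3%) and 104 of 959 (10.8%), beside 9.54% and 9.07% of all tested probe sets. Over all calls, 2943 probe sets were called in both lines, which is 43.2% of Newton's calls and 23.5% of Molly's 12514 (34.1%). Of these 1148 rose in both, 733 fell in both, 529 rose in Newton and fell in Molly, and 533 did the reverse.

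The difference between the responses, tested directly, passed the threshold for 9201 probe sets (25.1%). The response was more positive in Newton for 5011 of them, 54.5%, a share that became 64.5% when arrays were centred on their median. For 5280 of the 9201 only Molly's own change had been called, and for 2015 only Newton's. Among the named probe sets 28 of 132 differed.

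Of the named genes that fell in Newton, several rose or did not pass the threshold in Molly. LTP3 went from 4105 ± 354 to 11167 ± 2184 in Molly (mean ± SD, n = 3; log2 change 1.43, adjusted p = 2.0e-06), against the fall from 9576 ± 568 to 5473 ± 717 in Newton. In this bright probe set uninfested Newton was nearer to infested than to uninfested Molly, and the responses differed by -2.24 (SE 0.24, adjusted p = 2.6e-06). In the dim LTP3 probe set uninfested Newton (282 ± 51.5) was nearer to uninfested (229 ± 19.3) than to infested Molly (1140 ± 739). There the responses differed by -2.32 (adjusted p = 3.5e-04). GAPN rose in Molly from 89.4 ± 27.7, just above the tag controls, to 220 ± 43.7 (1.33, adjusted p = 0.0011), a difference of -2.41 (SE 0.41, adjusted p = 0.00021). BMY1 had a log2 change of 0.29 in Molly (95% interval -0.17 to 0.74) and differed by -1.47 (adjusted p = 0.0014). COMT1 had -0.09 (-0.27 to 0.09) and differed by -0.51 (adjusted p = 0.0046).

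Single genes of the inhibitor, transcription factor, detoxification and gibberellin lists rose in Molly and responded less in Newton by the direct test. XIP-I rose in Molly by 5.13, to 8998 ± 2000, and infested Newton reached 1700 ± 682, a difference in response of -3.85 (SE 0.74, adjusted p = 0.00068). WZF1, a zinc-finger protein gene, read 204, 137 and 162 in uninfested and 201, 266 and 85.2 in infested Newton (log2 change 0.00, 95% interval -0.81 to 0.81), while it rose in Molly by 3.49 (difference -3.49, adjusted p = 0.00011). GSTZ1 differed in 2 probe sets. One rose in both lines, by 1.07 in Newton and 2.51 in Molly (difference -1.44, adjusted p = 0.016). The other had 0.62 in Newton, which was not called (adjusted p = 0.12), and rose by 1.69 in Molly (difference -1.07, adjusted p = 0.043). For the GSTZ1 probe set whose uninfested groups lay within the range of the tag controls no difference was called (adjusted p = 0.98), and its size could not be measured. GA20ox1b and GA20ox1d, 20-oxidases that make gibberellin precursors, did not exceed the tag controls in either Newton group and rose in Molly to 149 ± 16.2 and 209 ± 42.8. FKBP70 went the other way, with 0.54 in Newton and -0.25 (-0.54 to 0.05) in Molly, a difference of 0.78 (adjusted p = 0.0061). AdSS, an enzyme of purine synthesis, and eIF-2-beta, a subunit of a translation initiation factor, fell in Molly (-0.79 and -0.65, adjusted p = 2.6e-05 and 2.7e-06) and had -0.03 (-0.28 to 0.21) and -0.08 (-0.25 to 0.08) in Newton, with differences of 0.76 and 0.56 (adjusted p = 0.002 and 0.00081).

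Other genes had changes of like direction in both lines. TUBA had 2.03 in Newton and 1.48 in Molly (difference 0.55, 95% interval -0.97 to 2.08) and Glc1 0.55 and 0.77 (-0.22, -0.66 to 0.21). Intervals that wide allow a real difference. In the histone list 19 of 20 probe sets fell and 1 rose in Molly, with a median of -0.94. Between the lines 1 of 20 differed, a dim probe set of wcH2A-3 (-1.07, adjusted p = 0.016). Of all tested probe sets 17.7% fell and 16.4% rose in Molly, and 25.1% differed between the lines. The 2 unnamed probe sets described above that rose in Newton also rose in Molly, to 9176 ± 2838 and 3809 ± 1216, from background. The unnamed probe set that started at 1771, 1306 and 1730 in Newton fell in both, in Molly from 1960 ± 574 to 362 ± 163. The one that started at 636, 726 and 791 fell in Newton and read 688 ± 16.6 uninfested and 731 ± 505 infested in Molly. That difference was called (adjusted p = 0.0044), but its size is uncertain since infested Newton was at background.

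**Figure D4:**
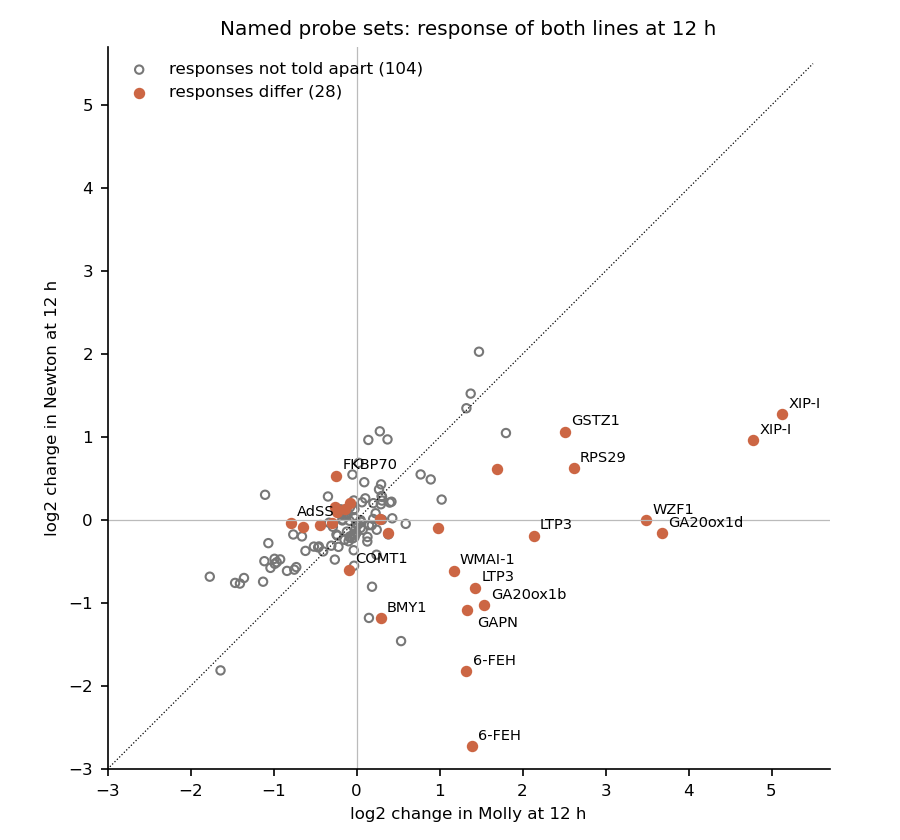
Log2 change at 12 h in Molly (across) and Newton (upwards), each against its own uninfested arrays, for the 132 tested probe sets with a telling gene name. Filled points (28) differed between the lines by the direct test, and the dotted line marks equal change. Most filled points with a large change in Molly, such as XIP-I at 5.13 and WZF1 at 3.49, lie below that line.

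Newton was also sampled at 6 and 24 h, and those comparisons use the same uninfested arrays of 12 h, so they are given side by side only. Calls numbered 5570 (15.2%) at 6 h, 6820 at 12 h and 11167 (30.4%) at 24 h. COMT1 had log2 changes of -0.42, -0.60 and -0.16 at 6, 12 and 24 h, with adjusted p of 0.0022, 8.2e-05 and 0.19. GAPN had -0.86, -1.09 and 0.64 (adjusted p = 0.048, 0.011 and 0.1). LTP3 was lower at each time, by -1.07, -0.81 and -1.06, as was BMY1, by -0.69, -1.18 and -1.30. FKBP70 was higher at each, by 0.89, 0.54 and 1.19, and TUBA by 2.00, 2.03 and 3.73. Among the probe sets called in Newton at 12 h and not at 6 or 24 h were those of tubb3, Tubb4, PRO1 and PsbP. So were 1 of GSTZ1 (adjusted p = 0.82 at 6 h and 0.82 at 24 h) and 1 of rbcL (0.14 and 0.31). The difference between times was not tested. The histone list had medians of -0.52, -0.52 and -1.26.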

How the data were processed

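The authors deposited linear intensity values for each probe set, from MAS5 per the submitters' processing notes, and its settings are not stated. On every array the trimmed mean signal (percentiles 2 to 98) was 500, so this scaling was kept. After 111 AFFX controls were set aside, the 40% of 61179 probe sets with the lowest mean log2 signal were left out (mean signal limit 44.8), which left 36707, 5 of them array reporters, none called. The model, in limma 3.58.1 (R 4.3.3), took log2 signal and gave each of 8 groups a mean over 24 arrays, with trended eBayes (16 residual and 4.49 prior degrees of freedom), two-sided tests and Benjamini-Hochberg adjustment. The fit was tested on simulated data. The number of arrays limits the precision. Where a group's geometric mean lay within the tag control range, the fold is a bound: the brighter group over 85.0. The supplied annotation paired 1273 probe sets with 1 gene and 59906 with none; 99 genes had a telling symbol. Every such gene with a call whose brighter group exceeded the tag controls is named, with its other probe sets. Also named are up to 2 of the brightest uncalled members per list, and up to 6 genes each way for the difference between lines. Of the unnamed probe sets, 2 each way are given. They had the largest called change among those without overlap between groups and with the brighter group above the median signal. Beyond this rule, lgul, PEAMT1, RPL9, PsbO, TCTP, TSA, WMAI-1, DMAS1 and a dim wcH2A-3 probe set were singled out after their values were seen. Unnamed probe sets are described by their values, without their IDs. The members and lists were chosen with earlier results of these data known. Deviations of same-numbered infested and uninfested Newton arrays had r = 0.017 to 0.029, and those of differently numbered ones -0.048 to 0.025. With 3 arrays per group this cannot show whether the numbers pair them, and the main fit treated them as unpaired. Genomic positions were not used here. Alternatives covered scaling, filter, pseudocount, variance prior, replicate block, 18S signal, the arrays fitted and each array left out.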

Additional observations from a re-analysis of the deposited data

Results flagged for a closer look

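The responses of Newton and Molly at 12 h differed, by the direct test of the difference, for 9201 probe sets. Among them were 28 of the 132 named probe sets, of which most, not all, are given below (log2 response in Newton minus that in Molly). The difference was negative for 6-FEH in 2 probe sets (-4.11 and -3.14), XIP-I in 2 (-3.85 and -3.81), GA20ox1d (-3.83), WZF1 (-3.49), GA20ox1b (-2.57) and GAPN (-2.41). It was also negative for LTP3 in 2 probe sets (-2.24 and -2.32), BMY1 (-1.47), GSTZ1 in 2 (-1.44 and -1.07) and COMT1 (-0.506). The sizes for 6-FEH and the gibberellin 20-oxidases are uncertain, since infested Newton lay within the range of the tag controls. It was positive for FKBP70 (0.784), AdSS (0.758), eIF-2-beta (0.564), Eif4B (0.415), eIF4E (0.373), Tubb5 (0.326) and AGP-S (0.277). For Eif4B, eIF4E and Tubb5 Newton's own change missed the threshold (0.15, -0.06 and 0.10), while all 3 fell in Molly (-0.26, -0.44 and -0.23). Groups of 3 arrays are too small for a test of single outlying arrays.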

How the results depend on the processing

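The count of 6820 calls was 3540 with 18S rRNA signal as a covariate, 4012 from the 6 arrays alone and 12092 with array quality weights, a setting added after seeing the data; the other settings gave 5088 to 6859, and leaving out 1 array gave 4496 to 7790. The 9201 differences between lines became 7390 to 10246, or 7495 to 8943 without 1 array. Of the 2-fold changes called in Molly too, 346 shared rises of 600 (57.7%) became 166 of 222 (74.8%) with the stricter filter. Above the tag control range (added after seeing the data) they were 202 of 301 (67.1%). Without 1 Newton array there were 233 to 555 shared rises. The 247 shared falls of 1285 (19.2%) became 146 of 596 (24.5%) with the stricter filter and 104 of 959 (10.8%) with the covariate. Without 1 array they were 178 to 385. The 262 falls called as rises in Molly (20.4%) became 145 (24.3%) with the stricter filter and 78 (8.13%) with the covariate. Without 1 array they were 209 to 269. The stricter filter tests fewer probe sets; the other causes were not tested. Fitting the replicate number as a block gave 6465 and 8839 calls and lost both wcH2B-6 calls (adjusted p = 0.0542 and 0.0548). Of 22 called named probe sets, 5 stayed called without each single array in turn (BMY1, LTP3, COMT1, tubb1 and a dim 6-FEH, which other settings lost), and 16 were lost without infested replicate 2. With the covariate 9 were kept, and with the 6 arrays alone 5 were. No called value changed sign under any setting run.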
